A study of Drosophila melanogaster with 12 samples.

Results

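Genes of DNA replication and the endocycle were followed in Drosophila melanogaster ovaries in which SETDB1, wde or Nup154 had been knocked down in the germline. The set was a list of 35 genes chosen by function: origin licensing, origin firing, the replication fork, nucleotide supply and the regulators of S phase. Of these, 31 had a row under their annotated identifier among the 17023 gene identifiers of the files, and all 31 were among the 10105 genes tested. Orc1, Mcm3, RPA2 and RPA3 were not analysed here. One of the 31, PCNA2, passed the filter on low counts only through the knockdown libraries, where it is high, so its difference was in part a condition of its being tested.

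The libraries were made from poly(A)-selected ovary RNA, and the ovaries were dissected 1 to 3 days after eclosion in every set. The 3 knockdown sets, each of 2 libraries, are labelled as germline knockdowns (GKD) of SETDB1, the H3K9 methyltransferase encoded by egg, of wde, its cofactor, and of Nup154, a nuclear pore protein that the series uses as a developmental control. They were compared with 2 libraries of young control ovaries whose titles name NGVP16, and set beside 2 further young control libraries whose titles name virgin flies, one of them also naming Dcr. A pair of libraries labelled adult control was left out of the comparisons. The sources used here do not name the RNAi constructs, the driver line or how many flies went into a library. The labels do not tie the 2 libraries of a set to separate crosses or flies. A p-value therefore speaks for the spread among the libraries at hand, part or all of which may be technical.

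Replication starts when the origin recognition complex, Cdc6 and Cdt1 load the MCM2-7 helicase onto DNA, and geminin blocks Cdt1 from doing so again in the same cycle. Cyclin E with Cdk2 then starts S phase, helped by Mcm10, Cdc45 and the GINS complex, and E2f1 with its partner Dp switches on many of the genes involved. In the fly ovary, germ cells first divide mitotically, after which the nurse cells, and later the follicle cells, go through endocycles, rounds of S phase without division that make them polyploid. Cyclin A is a mitotic cyclin that endocycling cells do without.

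Total counts ran from 7351948 to 20162235 in the 10 libraries compared. The libraries labelled SETDB1 GKD had 31.8 and 37.8 CPM (counts divided by the TMM-scaled library size) of egg, against 34.3 and 70.8 CPM in the NGVP16 pair, which was not a call (log2 fold change -0.60 ± 0.32, SE, adjusted p = 0.206), while egg passed the test against the virgin pair (-1.01 ± 0.33, adjusted p = 0.0404). The libraries labelled wde GKD had 74.4 and 92.9 CPM of wde, between the 43.1 and 143 CPM of the NGVP16 pair (-0.15 ± 0.46, adjusted p = 0.81). Nup154 fell in the libraries labelled Nup154 GKD (-1.28 ± 0.31, adjusted p = 0.0121). It was also called lower in wde GKD over the NGVP16 pair (-1.02 ± 0.31, adjusted p = 0.0308), and over the virgin pair in SETDB1 GKD (-1.36 ± 0.31, 0.0099) and wde GKD (-1.51 ± 0.31, 0.00508). A call for lower Nup154 was thus not limited to the libraries labelled Nup154 GKD. The wde message gave no check of its label. The RNA of a whole ovary also holds transcripts from cells that were not targeted. Adjusted p-values throughout are from the quasi-likelihood F test of edgeR with Benjamini-Hochberg adjustment over all genes tested, called at 0.05, and fold changes are knockdown over control on the log2 scale with an approximate SE, with 2 libraries in each set.

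Replication genes were mostly lower in the wde and Nup154 knockdowns, and fewer of them passed the test in the SETDB1 knockdown, where 27 of 31 point values were below 0. In SETDB1 GKD, 12 of the 31 were called lower and 1 higher against the NGVP16 pair, when 9.51% of all genes tested were called lower and 14.6% higher. In wde GKD, 22 were called lower and 1 higher, with 14.2% of all genes called lower and 21.3% higher, and in Nup154 GKD 21 were called lower and 1 higher, with 16.1% of all genes called lower and 20.8% higher. Both knockdown libraries lay below both NGVP16 libraries for 21, 25 and 25 of the 31 in the SETDB1, wde and Nup154 knockdowns, as they did for 25%, 27.5% and 28.7% of all genes. All 6 knockdown libraries lay below all 4 young controls for 19 of the 31, and for 13.9% of all genes. The median log2 fold change of the 31 was -0.73 with SETDB1, -1.19 with wde and -1.12 with Nup154 knocked down, beside medians over all genes of 0.11, 0.15 and 0.12. The 3 comparisons share the NGVP16 libraries, so their calls are not independent. The genes called lower in each of them were Cdc6, dup, Mcm2, Mcm5, Mcm10, Cdc45, PCNA, RnrS, CycE, CycA, E2f2 and Dp. PCNA2, which passed the filter on low counts only through the knockdown libraries, was the gene called higher in each. Psf1, Psf2, Psf3, chif, RpA-70 and E2f1 were called in none of the 3 comparisons.

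The counts of calls depended on single knockdown libraries, and the counts over all genes moved with them. Without SETDB1 GKD 1 no replication gene was called in that knockdown, when 2.43% of all genes were called lower. Without SETDB1 GKD 2 the calls left were dup, Mcm10, Cdc45, CycE and CycA, 5 in all, when 3.56% of all genes were called lower. Without wde GKD 1 there were 6 calls (Cdc6, dup, Mcm2, Mcm5, Mcm10 and CycA) and 3.29% of all genes called lower, and without wde GKD 2 there were 16 calls and 7.06%. Without Nup154 GKD 1 or 2 there were 9 calls each time, with 5.25% and 5.16% of all genes called lower. The fold changes kept their sign: over the alternatives, Cdc6 in SETDB1 GKD lay between -1.26 and -0.96, dup between -1.48 and -0.96 and CycA between -2.51 and -1.32. Leaving out 1 library leaves a knockdown with a single library that is assumed to vary like the other sets. Against the virgin pair in place of the NGVP16 pair, 12, 20 and 19 replication genes were called lower in SETDB1, wde and Nup154 GKD, when 13.2%, 17% and 16.2% of all genes were. With the 3 knockdowns pooled against the 4 young control libraries, 25 of the 31 were called lower and PCNA2 higher, when 24.9% of all genes were called lower and 32.2% higher. In bulk RNA, fewer cells of a type and less RNA per cell cannot be told apart, and this holds for every level below.

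**Figure D1:**
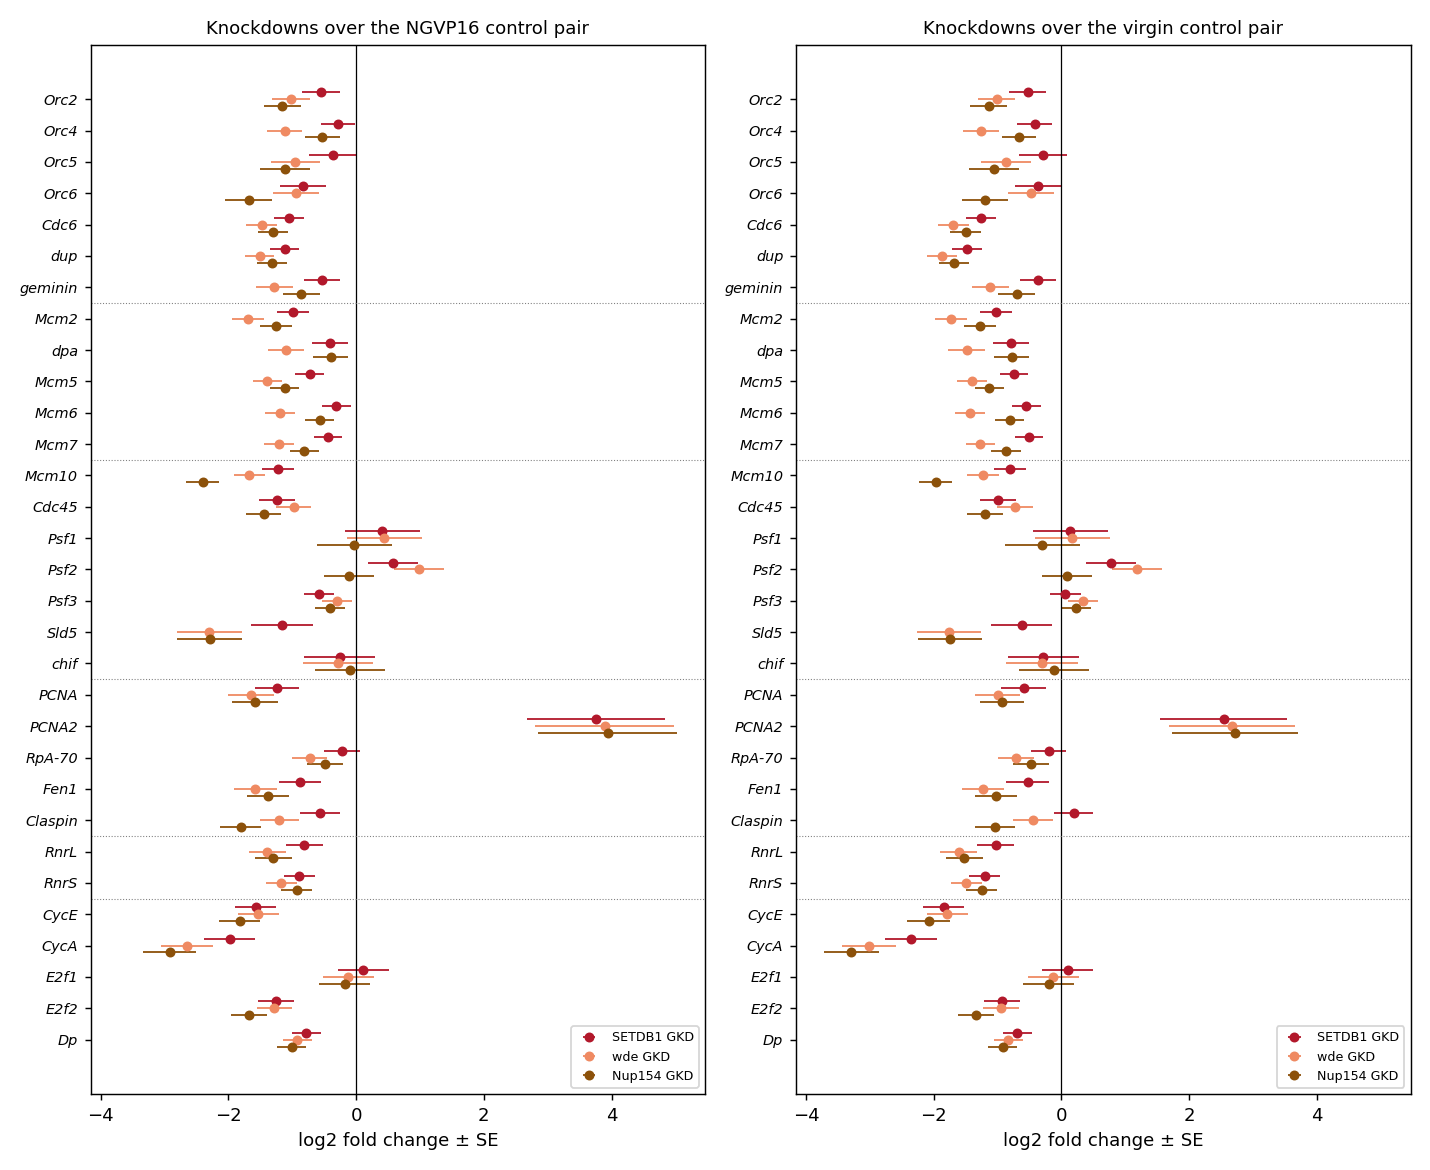
Log2 fold change (x axis, ± SE, n = 2 libraries a set) of 31 replication genes, one a row and grouped by role with dotted lines, in SETDB1, wde and Nup154 GKD over the NGVP16 pair (left) and over the virgin pair (right). Most points lie left of 0, CycA is the farthest left, PCNA2 lies far to the right, and E2f1, chif and Psf1 lie near 0.

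Of the 7 measured licensing genes outside the MCM complex, 2 were called lower with SETDB1 knocked down, 5 with wde and 6 with Nup154, and none was called higher. Over all genes tested, 9.51%, 14.2% and 16.1% were called lower in these knockdowns. All 7 point values were below 0 in each knockdown. Cdc6 (FBgn0035918, 3L:8631509-8634069 in dm6), which helps load the helicase, had 16.1 and 18.4 CPM in SETDB1 GKD, 12 and 13.6 CPM in wde GKD and 15.8 and 13.3 CPM in Nup154 GKD, against 35.8 and 35.7 CPM in the NGVP16 pair and 42.0 and 40.4 CPM in the virgin pair. Each of its 6 knockdown libraries lay below each of the 4 controls, and the fold changes over the NGVP16 pair were -1.05 ± 0.23 (adjusted p = 0.0134), -1.48 ± 0.24 (0.0025) and -1.30 ± 0.24 (0.00354) in the 3 knockdowns in that order. The gene dup (FBgn0000996, 2R:15376619-15380988), which encodes Cdt1, had 48.8 and 51.2 CPM in SETDB1 GKD, 34.0 and 42.1 CPM in wde GKD and 44.3 and 42.7 CPM in Nup154 GKD, against 97.1 and 120 CPM in the NGVP16 pair and 134 and 145 CPM in the virgin pair. Its groups did not overlap either, and it fell by 1.12 ± 0.23 (adjusted p = 0.00906), 1.51 ± 0.23 (0.00197) and 1.32 ± 0.23 (0.00285) on the log2 scale in the 3 knockdowns in that order.

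The other 5 licensing genes were called in fewer knockdowns. Orc2, a subunit of the origin recognition complex, was called lower in wde GKD (-1.02 ± 0.29) and Nup154 GKD (-1.16 ± 0.29), and not in SETDB1 GKD (-0.55 ± 0.29). Orc6, a further subunit, was called only in Nup154 GKD at -1.68 ± 0.37, with -0.83 ± 0.36 in SETDB1 GKD and -0.94 ± 0.36 in wde GKD. Orc4 was called in wde GKD (-1.12 ± 0.28) and Orc5 in Nup154 GKD (-1.12 ± 0.39). The Orc5 call ended over the virgin pair (-1.05 ± 0.39, adjusted p = 0.0574) and without NGVP16 control 1. Geminin, the inhibitor of Cdt1, was called in wde GKD (-1.28 ± 0.29) and Nup154 GKD (-0.86 ± 0.29), and was -0.53 ± 0.28 in SETDB1 GKD. The geminin call in Nup154 GKD ended over the virgin pair (-0.70 ± 0.29, adjusted p = 0.0789), with the length trend removed, with a replicate block and without NGVP16 control 1, and its value reached -0.31 over the alternatives. No test of the difference between knockdowns passed for any of these 5 genes.

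Of the 5 measured subunits of the MCM2-7 helicase, which unwinds DNA, 5 were called lower in wde GKD, 3 in Nup154 GKD and 2 in SETDB1 GKD. The shares of all genes called lower there were 14.2%, 16.1% and 9.51%. All 5 point values were below 0 in each knockdown. Mcm2 (FBgn0014861, 3R:8264970-8267924) had 73.1 and 87.3 CPM in SETDB1 GKD, 43.9 and 54.1 CPM in wde GKD and 66.7 and 67.4 CPM in Nup154 GKD, against 172 and 147 CPM in the NGVP16 pair and 185 and 140 CPM in the virgin pair. Mcm5 (FBgn0017577, 3R:10788524-10791150) had 64.3 and 77.5 CPM in SETDB1 GKD, 43.1 and 46.2 CPM in wde GKD and 53.6 and 54.3 CPM in Nup154 GKD, against 108 and 127 CPM in the NGVP16 pair and 127 and 109 CPM in the virgin pair. For both genes every knockdown library was below every control library. Mcm2 fell by 0.99 ± 0.25 (adjusted p = 0.0218), 1.70 ± 0.25 (0.00187) and 1.25 ± 0.25 (0.00557) on the log2 scale in SETDB1, wde and Nup154 GKD. Mcm5 fell by 0.73 ± 0.22, 1.39 ± 0.23 and 1.12 ± 0.23, with adjusted p-values of 0.0446, 0.00267 and 0.00556. The Mcm5 call in SETDB1 GKD ended with no filter on low counts, with the adult pair added and with a replicate block.

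The remaining helicase subunits had lower point values in wde GKD than in SETDB1 and Nup154 GKD, though the differences between knockdowns did not pass the test. Mcm7 was -0.44 ± 0.22 in SETDB1 GKD, not a call, and was called at -1.21 ± 0.23 in wde GKD and -0.81 ± 0.23 in Nup154 GKD. Its exons share 81.7% of their bases with an antisense RNA, asRNA:CR45871, and the strand setting of the counting is not given, so its reads and those of its partner cannot be told apart with certainty. Mcm6 and dpa (the gene of Mcm4) were called lower in wde GKD alone, at -1.19 ± 0.23 and -1.10 ± 0.28. Their values were -0.31 ± 0.23 and -0.41 ± 0.28 in SETDB1 GKD, and -0.57 ± 0.23 and -0.40 ± 0.28 in Nup154 GKD.

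Of the 7 origin firing genes, over the NGVP16 pair, Mcm10 and Cdc45 were called lower in every knockdown, Sld5 in wde and Nup154 GKD, and the other 4 in none. Among all genes tested, 9.51%, 14.2% and 16.1% were called lower in SETDB1, wde and Nup154 GKD. Point values were below 0 for 5, 5 and 7 of the 7 in these sets. Mcm10 (FBgn0032929, 2L:21179933-21182812), which helps activate the loaded helicase, had 42.0 and 40.0 CPM in SETDB1 GKD, 26.4 and 34.3 CPM in wde GKD and 19.9 and 16.6 CPM in Nup154 GKD, against 83 and 110 CPM in the NGVP16 pair and 76.2 and 66.4 CPM in the virgin pair. It fell by 1.23 ± 0.25 (adjusted p = 0.00894), 1.67 ± 0.25 (0.00197) and 2.40 ± 0.26 (0.000365) on the log2 scale in the SETDB1, wde and Nup154 knockdowns, and all of its knockdown libraries were below all controls. Its exons share 13% of their bases with the opposite-strand gene Ret. Cdc45 (FBgn0026143, X:1028291-1030556), a component of the active helicase, had 27.4 and 35.9 CPM in SETDB1 GKD, 38.0 and 37.9 CPM in wde GKD and 31.5 and 23.1 CPM in Nup154 GKD, against 89.1 and 60.4 CPM in the NGVP16 pair and 64.5 and 61.1 CPM in the virgin pair. Its fold changes were -1.24 ± 0.28 (adjusted p = 0.0138), -0.98 ± 0.28 (0.0251) and -1.45 ± 0.28 (0.00461), again with no overlap between knockdown and control libraries. Over the virgin pair the Cdc45 call in wde GKD ended (-0.73 ± 0.28, adjusted p = 0.0599).

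The GINS complex, which joins Cdc45 in the active helicase, did not move as one. Sld5 was called lower in wde GKD (-2.30 ± 0.51) and Nup154 GKD (-2.29 ± 0.51), and was -1.16 ± 0.49 without a call in SETDB1 GKD, with 38.8 and 15.9 CPM in the 2 NGVP16 libraries. Psf1, Psf2 and Psf3 were called in none of the 3. Psf1 lay between 4.62 and 8.17 CPM in the 6 knockdown libraries, against 2.84 to 9.45 CPM in the 4 controls. Psf2 was 14 to 23.2 CPM in SETDB1 and wde GKD and 10.6 to 10.8 CPM in Nup154 GKD, against 7.11 to 14 CPM in the controls. Psf2 was called higher in wde GKD over the virgin pair (1.18 ± 0.39, adjusted p = 0.0384, where 26.4% of all genes were) but not over the NGVP16 pair (0.99 ± 0.39, adjusted p = 0.0782). Psf3 shares 34.9% of its exon bases with the opposite-strand gene CG17841. The gene chif, whose product is the fly relative of the Dbf4 activator of Cdc7 kinase, had 124 to 158 CPM in the knockdowns against 64.7 and 267 CPM in the 2 NGVP16 libraries, and its fold changes lay between -0.28 and -0.10 with SEs of 0.55. It shares 19.5% of its exon bases with Hyls1 on the same strand, where strand cannot tell the reads of the genes apart.

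At the fork, PCNA, the sliding clamp that holds the polymerase on DNA, fell in every knockdown. PCNA2, a second PCNA-like gene that was tested only through its knockdown counts, was higher in each. PCNA (FBgn0005655, 2R:20261754-20262883) had 101 and 144 CPM in SETDB1 GKD, 81.8 and 102 CPM in wde GKD and 96.8 and 96.6 CPM in Nup154 GKD, against 380 and 200 CPM in the NGVP16 pair and 211 and 158 CPM in the virgin pair. All 6 knockdown libraries lay below the 4 controls, and the fold changes over the NGVP16 pair were -1.24 ± 0.35 (adjusted p = 0.0338), -1.65 ± 0.36 (0.00854) and -1.58 ± 0.36 (0.00919). With a replicate block the PCNA call in SETDB1 GKD ended. NGVP16 control 1 held the highest value, 380 CPM. The SETDB1 GKD call ended without that library, and over the virgin pair PCNA was -0.59 ± 0.35 in SETDB1 GKD (adjusted p = 0.21), -1.0 ± 0.35 in wde GKD (0.0459) and -0.93 ± 0.35 in Nup154 GKD (0.0606).

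PCNA2 (FBgn0032813, 2L:19582823-19583990) had 2.42 and 3.92 CPM in SETDB1 GKD, 2.71 and 4.23 CPM in wde GKD and 2.58 and 4.59 CPM in Nup154 GKD, against 0 and 0.402 CPM in the NGVP16 pair and 0.727 and 0.284 CPM in the virgin pair. It stayed far below PCNA in each library. It reached the limit of the filter on low counts in 6 knockdown libraries and in 0 young control libraries. It was therefore tested only because it was high in the knockdowns. Its calls, its ratios and the lack of overlap between its knockdown and control libraries give no independent support for a rise. In counts, 78, 71 and 82 reads in the 3 knockdown pairs stood against 5 in the NGVP16 pair, ratios of 12.3 (95% interval 5.05 to 38.9), 14.1 (5.75 to 44.6) and 14.6 (6.01 to 46.2), where the intervals cover counting error only. Against the 16 reads of the virgin pair, the ratios were 4.98, 5.7 and 5.91, and of the 3 calls none held there or without NGVP16 control 1 (over the virgin pair, adjusted p = 0.0749, 0.0558 and 0.0552). Over all knockdowns and all young controls the ratio was 7.42 (4.74 to 12.2). Reads that fit both PCNA genes could have been split between them by the counting, so the level of PCNA2 is uncertain.

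The other fork genes were mixed. Fen1, the flap nuclease of lagging-strand maturation, was called in wde GKD (-1.58 ± 0.34) and Nup154 GKD (-1.38 ± 0.33), and was -0.88 ± 0.33 in SETDB1 GKD without a call. Claspin, which relays the replication checkpoint, was called in wde GKD (-1.20 ± 0.31) and Nup154 GKD (-1.81 ± 0.32) and was -0.57 ± 0.31 in SETDB1 GKD. Over the virgin pair Claspin was 0.19 ± 0.31 in SETDB1 GKD (adjusted p = 0.655) and -0.44 ± 0.31 in wde GKD (0.271), neither of them a call, and -1.04 ± 0.31 in Nup154 GKD (0.0268), which was one. RpA-70, the large subunit of the single-strand binding protein RPA, was called in none and had -0.22, -0.73 and -0.49 in the SETDB1, wde and Nup154 knockdowns. With all knockdowns pooled over all young controls it was called lower (-0.47 ± 0.18, adjusted p = 0.0498). That call ended in 9 of 16 alternatives: with the length trend removed, with DESeq2 size factors, and without 1 of several libraries. Those libraries were SETDB1 GKD 1, wde GKD 1 or 2, Nup154 GKD 1 or 2, NGVP16 control 2 and virgin control 1. RpA-70 and Mcm2 are divergently transcribed neighbours on 3R, with 518 bases between them. RpA-70 was below 0 without a call in each knockdown, where Mcm2 was called lower. The difference between the 2 genes was not tested.

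Both genes of ribonucleotide reductase, which makes the deoxyribonucleotides for replication, were lower in wde and Nup154 GKD. RnrS (FBgn0011704, 2R:11983145-11985393), the small subunit, had 101 and 128 CPM in SETDB1 GKD, 93.6 and 95.3 CPM in wde GKD and 112 and 111 CPM in Nup154 GKD, against 223 and 202 CPM in the NGVP16 pair and 295 and 234 CPM in the virgin pair. Its fold changes were -0.89 ± 0.24 (adjusted p = 0.0293), -1.17 ± 0.24 (0.00724) and -0.93 ± 0.24 (0.0169), with every knockdown library below every control. The RnrS call in SETDB1 GKD ended with a replicate block. RnrL, the large subunit, was called in wde GKD at -1.39 ± 0.29, was called in Nup154 GKD at -1.30 ± 0.29, and missed the threshold in SETDB1 GKD (-0.81 ± 0.29, adjusted p = 0.0697).

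**Figure D2:**
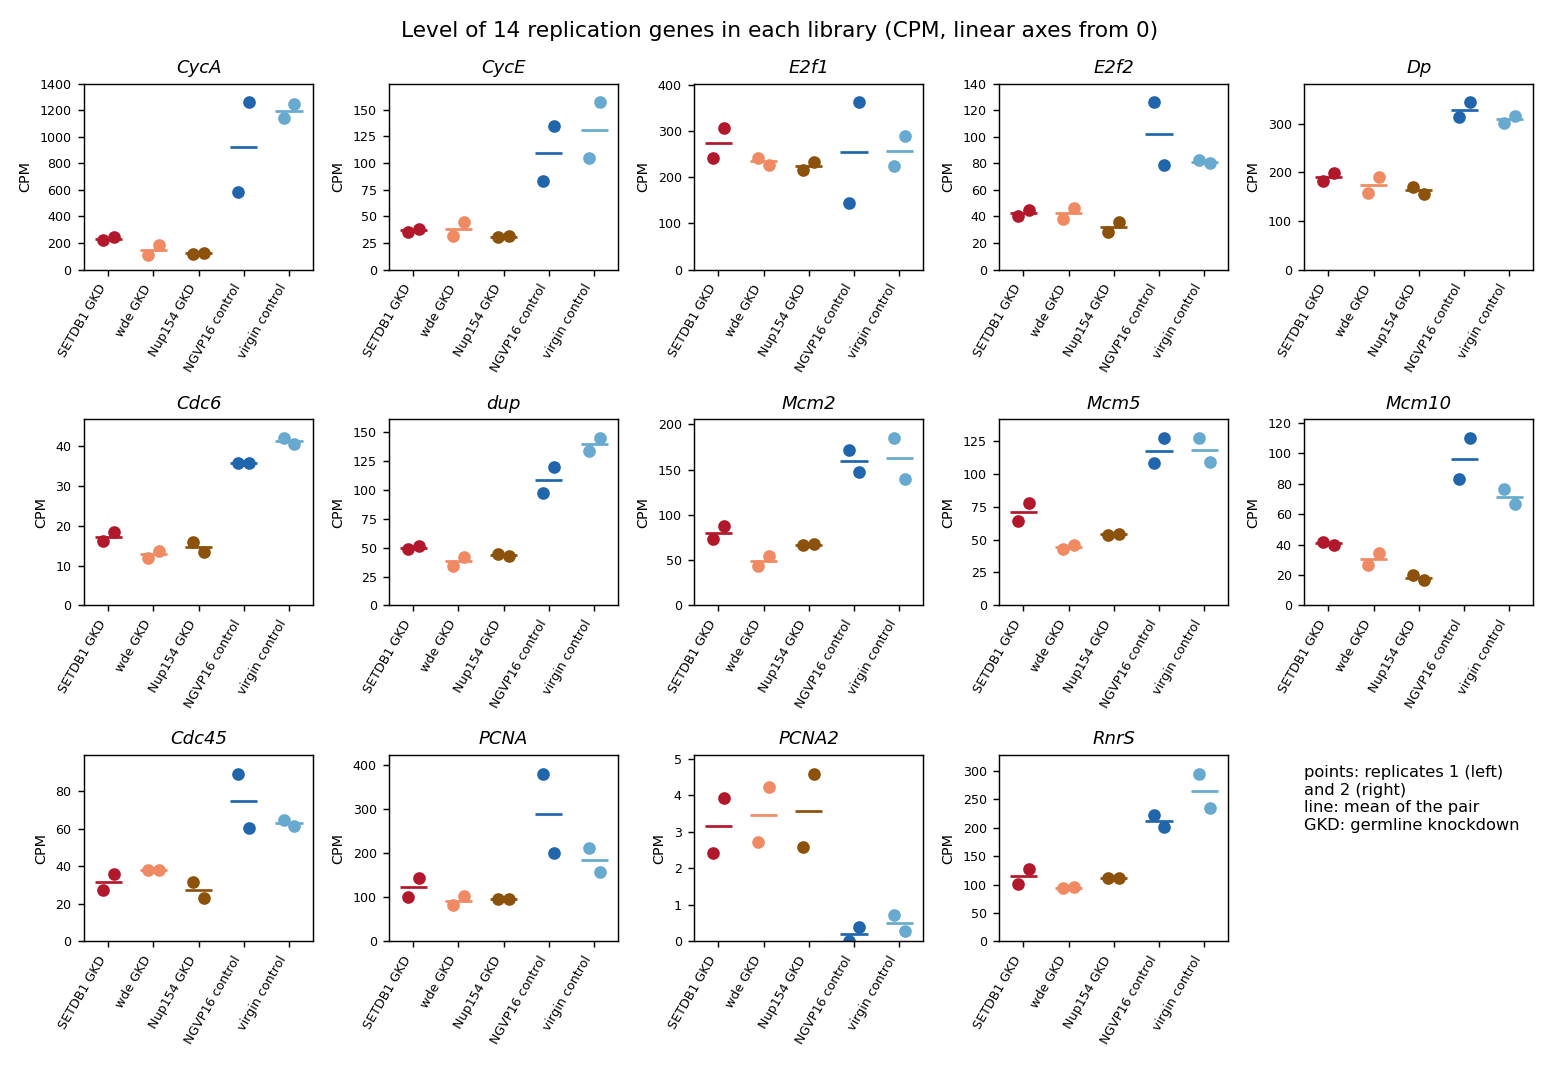
CPM of 14 replication genes in each library, in order SETDB1, wde and Nup154 GKD, then the NGVP16 and virgin controls, with points for replicates 1 and 2 and a line at their mean. For CycA the 6 knockdown libraries lie at 112 to 246 CPM and the 4 controls at 583 to 1260 CPM, for PCNA2 the order is turned round at under 5 CPM, and for E2f1 the sets overlap.

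Among the regulators of S phase, the mitotic cyclin CycA (FBgn0000404, 3L:11826719-11833578) showed the largest fall of the 31 genes in each knockdown. It had 221 and 246 CPM in SETDB1 GKD, 112 and 183 CPM in wde GKD and 117 and 127 CPM in Nup154 GKD, against 583 and 1260 CPM in the NGVP16 pair and 1140 and 1250 CPM in the virgin pair. The groups did not overlap, and it was 3.95 times lower in SETDB1 GKD (-1.98 ± 0.40, adjusted p = 0.00929), 6.26 times lower in wde GKD (-2.65 ± 0.41, 0.00222) and 7.57 times lower in Nup154 GKD (-2.92 ± 0.42, 0.00123). Per kilobase of exon, CycA was the most abundant of the 31 in both young control sets, at 316 ± 164 CPM per kb among the NGVP16 libraries and 408 ± 27 among the virgin ones (SD, n = 2), and in the SETDB1, wde and Nup154 knockdowns it held places 3, 5 and 6, with PCNA first.

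CycE (FBgn0010382, 2L:15727581-15748150), the cyclin that starts S phase in mitotic cycles and in endocycles, had 35.6 and 37.9 CPM in SETDB1 GKD, 31.5 and 44.3 CPM in wde GKD and 30.6 and 31.4 CPM in Nup154 GKD, against 83.4 and 135 CPM in the NGVP16 pair and 105 and 157 CPM in the virgin pair. It fell by 1.57 ± 0.32 (adjusted p = 0.00943), 1.53 ± 0.32 (0.00756) and 1.82 ± 0.32 (0.00324) on the log2 scale in the 3 knockdowns, and all knockdown libraries were below all controls. Leaving out either NGVP16 library did not end these calls.

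The E2F genes differed from one another. E2f1, which encodes the activating E2F of the fly (FBgn0011766, 3R:21620304-21660871), had 242 and 307 CPM in SETDB1 GKD, 241 and 227 CPM in wde GKD and 215 and 232 CPM in Nup154 GKD, against 145 and 362 CPM in the NGVP16 pair and 223 and 290 CPM in the virgin pair. The knockdown values lay inside the range of the controls, and its fold changes over the NGVP16 pair were 0.11 ± 0.40, -0.12 ± 0.40 and -0.18 ± 0.40. E2f2, the repressing E2F (FBgn0024371, 2L:21154293-21156749), had 40.5 and 44.8 CPM in SETDB1 GKD, 37.8 and 46.7 CPM in wde GKD and 28.3 and 35.9 CPM in Nup154 GKD, against 126 and 78.8 CPM in the NGVP16 pair and 82.3 and 79.9 CPM in the virgin pair. It fell by 1.26 ± 0.28 (adjusted p = 0.0132), 1.28 ± 0.28 (0.00915) and 1.68 ± 0.28 (0.00265) on the log2 scale, its groups did not overlap, and 19.9% of its exon bases overlap the opposite-strand gene Mpp6. Dp, the partner of both E2Fs (FBgn0011763, 2R:13222433-13228202), had 182 and 199 CPM in SETDB1 GKD, 158 and 190 CPM in wde GKD and 170 and 156 CPM in Nup154 GKD, against 313 and 344 CPM in the NGVP16 pair and 302 and 315 CPM in the virgin pair. Its fold changes were -0.78 ± 0.23 (adjusted p = 0.037), -0.92 ± 0.23 (0.0154) and -1.01 ± 0.23 (0.0095), and its groups did not overlap. The Dp call in SETDB1 GKD ended with no filter on low counts and with a replicate block.

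Of 68 further genes of replication and of the cell cycle, 65 were matched and 63 tested, and none was called higher in any of the 3 knockdowns over the NGVP16 pair. In SETDB1 GKD 13 of the 63 were called lower, in wde GKD 38 and in Nup154 GKD 34, with median fold changes of -0.65, -1.17 and -0.98. Over all genes in these comparisons, 9.51%, 14.2% and 16.1% were called lower, 14.6%, 21.3% and 20.8% higher, and the medians were 0.11, 0.15 and 0.12. Among the cell-cycle genes called in all 3 knockdowns, those with the largest mean change were the mitotic cyclins CycB (-2.88 ± 0.39, -3.15 ± 0.39 and -2.85 ± 0.39 in SETDB1, wde and Nup154 GKD) and CycB3 (-1.64 ± 0.24, -2.57 ± 0.24 and -1.91 ± 0.24), followed by Cdk4 (-0.86 ± 0.26, -1.27 ± 0.26 and -1.48 ± 0.26). Cdk2, the kinase partner of cyclin E, fell by 1.85 ± 0.24, 1.69 ± 0.24 and 1.99 ± 0.24 in these 3 sets, and Cdc7 by 1.10 ± 0.31, 1.38 ± 0.31 and 0.90 ± 0.31. The checkpoint kinase genes grp, which encodes Chk1, and lok, which encodes Chk2, were lower in each knockdown as well: grp at -1.92 ± 0.22, -2.06 ± 0.22 and -1.87 ± 0.22, and lok at -1.52 ± 0.25, -2.08 ± 0.25 and -1.89 ± 0.25. Further down this list were PolA2, a subunit of DNA polymerase alpha (-0.68 ± 0.21, -1.29 ± 0.21 and -0.90 ± 0.21), DNAlig1, the ligase that joins Okazaki fragments (-0.81 ± 0.22, -1.29 ± 0.22 and -1.45 ± 0.22), and dnk, a deoxynucleoside kinase (-1.09 ± 0.23, -1.36 ± 0.23 and -0.98 ± 0.23). The timeless relative tim2 had -0.97 ± 0.24, -1.51 ± 0.25 and -1.42 ± 0.25.

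Cell-type markers moved with the replication genes, and their part in the result was not tested. The counts of marker genes called stand beside 14.6%, 21.3% and 20.8% of all genes called higher and 9.51%, 14.2% and 16.1% called lower with SETDB1, wde and Nup154 knocked down. Counts from muscle sheath genes (13 of 13 called higher in each knockdown over the NGVP16 pair) made up 2.29% to 3.03% of the knockdown libraries, against 0.302% to 0.469% in the young controls. Hemocyte markers made up 0.855% to 1.35% in the knockdowns against 0.201% to 0.496% in the young controls, with 8 of 10 called higher in each knockdown. Markers of follicle and other ovarian somatic cells rose in 4, 5 and 4 of 10 genes in SETDB1, wde and Nup154 GKD, none fell, and they made up 0.156% to 0.214% in knockdowns against 0.0571% to 0.1% in the controls. The germ cell markers ran at 0.0582% to 0.107% in knockdowns against 0.284% to 0.581% in the controls, and 3, 5 and 2 of 8 were called lower, with 1, 1 and 0 called higher. Oocyte and maternal mRNAs were at 0.0328% to 0.0726% in knockdowns against 0.568% to 0.754% in the controls, and eggshell genes at 0.0209% to 0.186% against 0.541% to 1.22%. All 8 germ cell and all 13 oocyte markers had counts in every library, and 11 of the 17 eggshell genes did in wde GKD 1. The germ cell and oocyte lists both hold osk, so they are not independent, and vas and nos were not matched. Intestine markers reached 0.136% in SETDB1 GKD 1 and were at 0.000121% in SETDB1 GKD 2. The summed level of the 31 replication genes was 1700 to 2580 CPM in the 6 knockdown libraries, against 3740 to 4890 CPM in the 4 young controls.

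**Figure D3:**
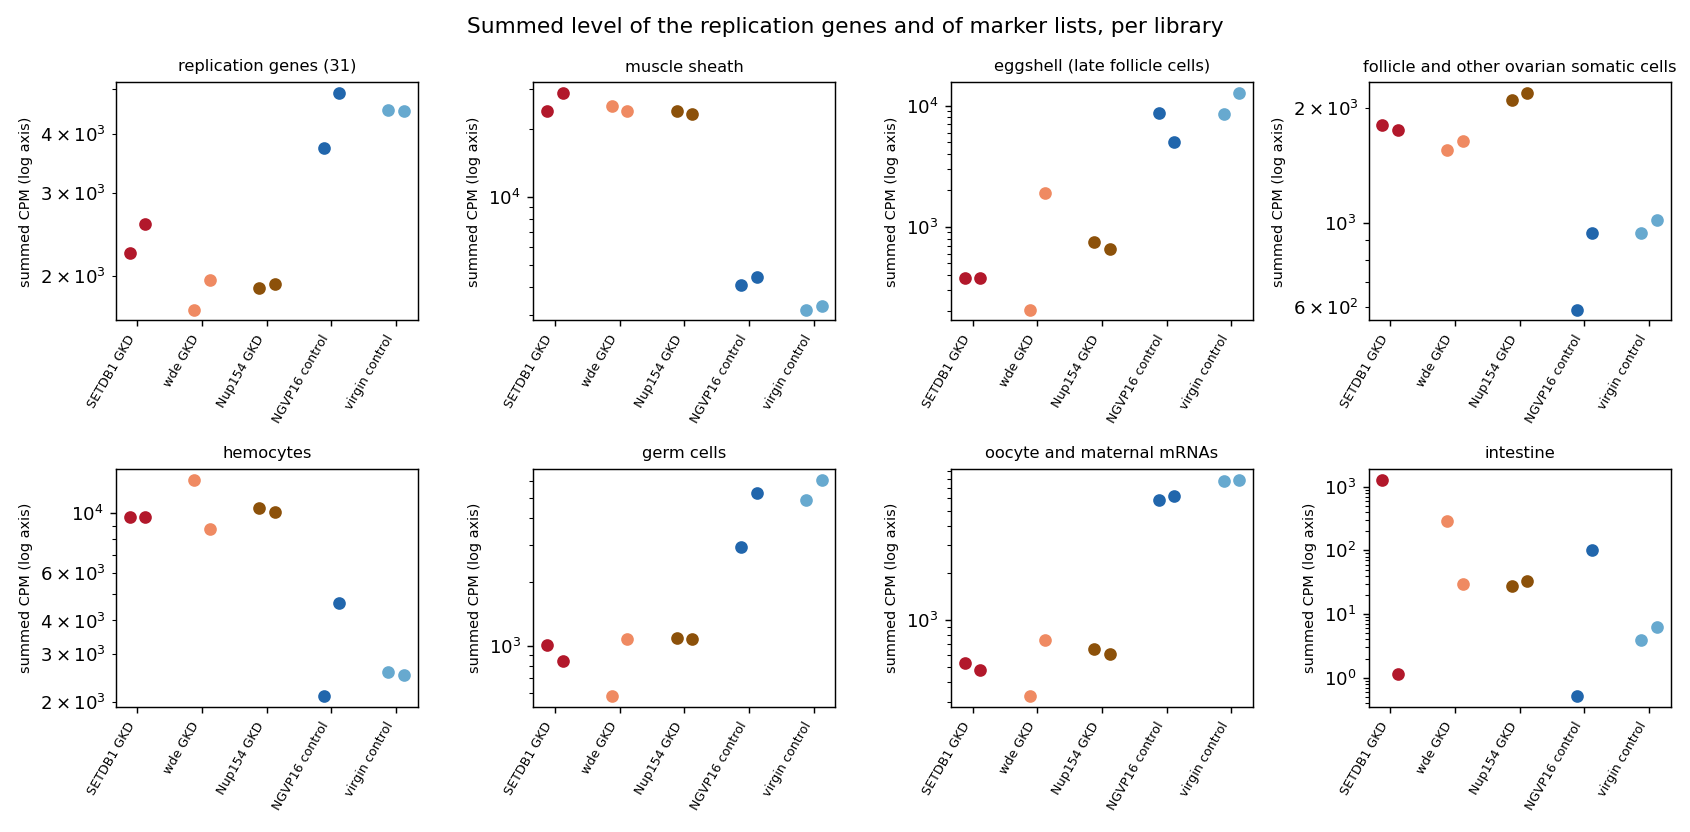
Summed CPM (log axes) of the 31 replication genes and of 7 marker lists in each library, knockdowns first. The replication genes and the germ cell, oocyte and eggshell lists lie lower in the 6 knockdown libraries than in the 4 controls, and the muscle and hemocyte lists lie higher.

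Between pairs of knockdowns, 1 replication gene passed the test, in 1 of the 3 comparisons. In SETDB1 GKD over wde GKD none of the 31 was called (0.287% of all genes were), with 8 at an unadjusted p under 0.05 (13.8% of all genes were) and 2 by DESeq2, which called 572 of 10105 genes. The point values were nevertheless above 0 for 25 of 31 genes, with a median of 0.43 where the median over all genes was -0.02. The 5 helicase subunits lay close together, at 0.67 to 0.88, and none was called. On the log2 scale the 95% interval for Mcm6, the largest value, ran from 0.29 to 1.47 (adjusted p = 0.149). For dpa it ran from -0.04 to 1.41 (adjusted p = 0.332). In SETDB1 GKD over Nup154 GKD the gene called was Mcm10, with 42.0 and 40.0 CPM in SETDB1 GKD against 19.9 and 16.6 CPM in Nup154 GKD (1.17 ± 0.25, adjusted p = 0.0447), where 3.68% of all genes were called. Unadjusted p-values under 0.05 were found for 5 genes there and for 22.2% of all genes, and DESeq2 called 2, among 1246 genes in all. In wde GKD over Nup154 GKD none was called (1.42% of all genes), with 4 at an unadjusted p under 0.05 (18.1% of all genes) and 1 by DESeq2, among 924 genes in all. For CycA the 95% interval of the difference was -0.34 to 1.67 for SETDB1 over wde GKD, -0.07 to 1.95 for SETDB1 over Nup154 GKD and -0.73 to 1.28 for wde over Nup154 GKD.

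**Figure D4:**
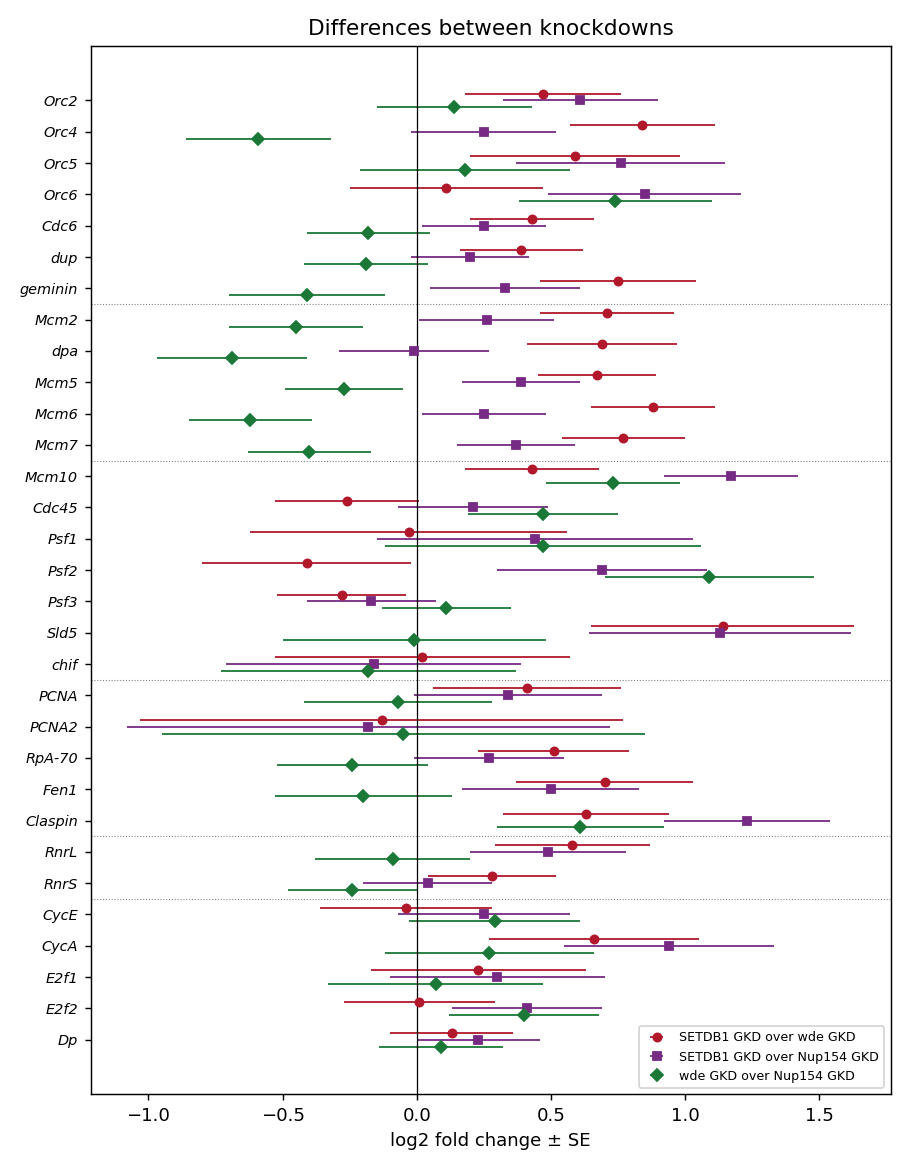
Log2 fold change (x axis, ± SE) of 31 replication genes between pairs of knockdowns, SETDB1 over wde GKD, SETDB1 over Nup154 GKD and wde over Nup154 GKD. The helicase subunits lie at 0.67 to 0.88 for SETDB1 over wde GKD, and Mcm10 is at 1.17 for SETDB1 over Nup154 GKD.

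In the virgin pair over the NGVP16 pair, none of the 31 was called (1.64% of all genes were), with 2 at an unadjusted p under 0.05 (18.2% of all genes) and none by DESeq2, which called 903 genes, and their median was 0.01. The NGVP16 pair was the least alike of the replicate pairs. In NGVP16 control 1, long genes were low relative to NGVP16 control 2: the difference of the pair had a Spearman's rho of -0.695 with exon length across the 31 genes, and -0.829 across 6426 genes, which share libraries and are not independent. The rho was -0.723 in the virgin pair and 0.239, -0.138 and 0.281 in SETDB1, wde and Nup154 GKD across the 31. Of the 31 genes, 16 were within 1.5-fold between the 2 NGVP16 libraries, 27 in the virgin pair, and 28 to 30 in the knockdown pairs. The fold changes over the NGVP16 pair had a rho with exon length of -0.162, -0.16 and -0.114 in the 3 knockdowns.

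**Figure D5:**
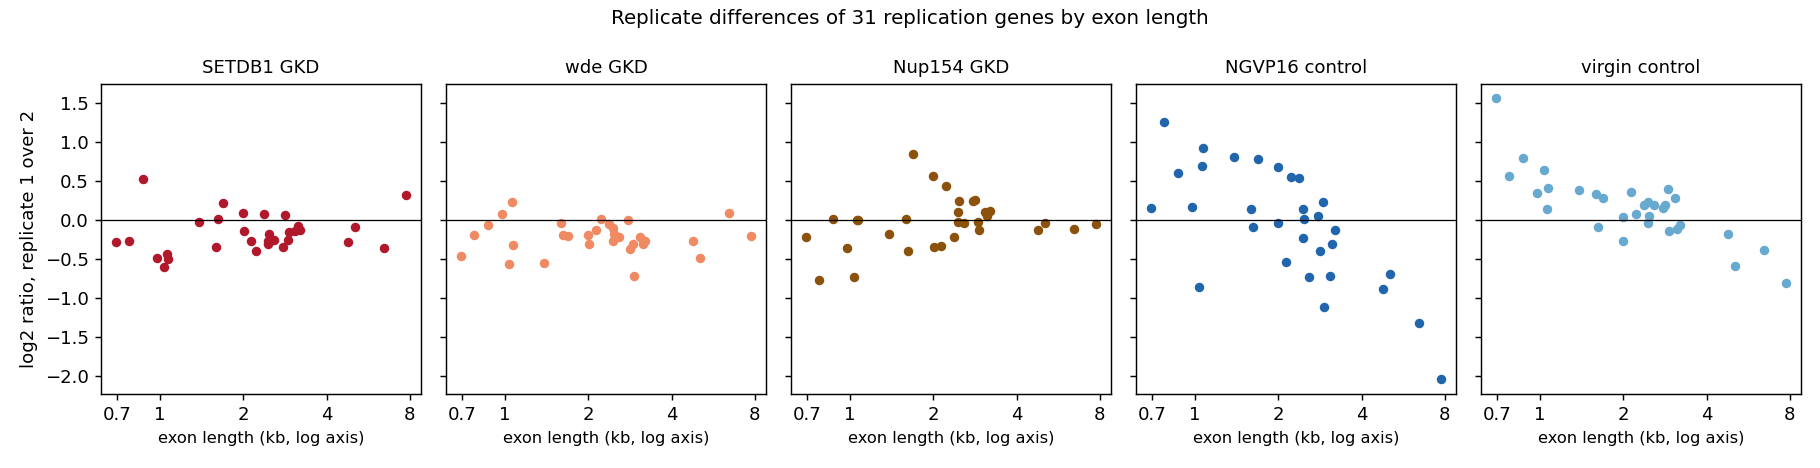
Log2 ratio of replicate 1 over replicate 2 (y axis) against exon length (x axis, kb, log scale) for 31 replication genes in each set. In the NGVP16 and virgin controls the ratio falls with length, with a Spearman's rho of -0.695 and -0.723, and in the SETDB1, wde and Nup154 knockdowns rho is 0.239, -0.138 and 0.281.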

How the data were processed

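Poly(A) mRNA of ovaries was sequenced in 12 libraries, prepared with a directional kit per the labels' protocols. The deposited files hold whole-number read counts per FlyBase gene identifier, which the authors did not normalize, judging by the values. Per the submitters' processing notes, HISAT2 2.1.0, featureCounts 1.4.6, DESeq2 1.24.0 and the build dm6 were used. What each tool did, which annotation was counted and with which strand setting is not given in the sources used here.

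Ensembl release 115 supplied symbols, exon lengths and positions, and 16647 of 17023 identifiers matched. Genes were filtered with filterByExpr and TMM scaling was applied. In edgeR 4.0.16 (R 4.3.3), the robust quasi-likelihood F test was fitted to 10 libraries with 1 mean per set and 5 residual degrees of freedom, with Benjamini-Hochberg adjustment over 10105 genes at 0.05. CPM are counts divided by the TMM-scaled library size. The SE is the absolute log2 fold change over the square root of F. Intervals of differences between knockdowns are 95% intervals from that SE at 5 degrees of freedom. DESeq2 1.42.0 was an alternative.

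The members and lists were chosen with earlier results of these data known. Values per library are given for members called in the same direction in all 3 knockdowns (the 12 with the largest mean absolute log2 fold change), for members called between knockdowns or controls, and for PCNA, PCNA2, CycE, CycA, E2f1, E2f2 and Dp. Other values printed per gene were chosen after they were seen. Up to 3 further pathway genes are named per list, those with the largest mean change among genes called in all 3 knockdowns. Alternatives were other scalings, no filter, DESeq2, the adult pair added, an exon length trend removed, the virgin control, a replicate block and each library left out. The depth of 7351948 to 20162235 counts limits precision for low genes such as PCNA2.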

Additional observations from a re-analysis of the deposited data

Results flagged for a closer look

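In SETDB1 GKD over Nup154 GKD, 3.23% of the replication genes were called, near the 3.68% of all genes called there. Mcm10 was the single replication gene called between 2 knockdowns. It was 1.17 higher on the log2 scale in SETDB1 GKD than in Nup154 GKD (adjusted p = 0.0447, edgeR quasi-likelihood test), with both SETDB1 GKD libraries above both Nup154 GKD libraries. The call held with other scalings, without the filter, with DESeq2, with the adult pair added and with the length trend removed (adjusted p between 0.000254 and 0.0484 over these). It ended when any one of the 4 libraries was left out (adjusted p = 0.132 and 0.184 without SETDB1 GKD 1 or 2, 0.26 and 0.336 without Nup154 GKD 1 or 2) and in the replicate block (0.113), with fold changes of 1.04 to 1.31. The exons of Mcm10 share 13% of their bases with the opposite-strand gene Ret.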

How the results depend on the processing

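Over all alternatives, no called fold change of the 31 replication genes changed sign, and 1010 values kept their call while 113 lost it. The other pathway genes, and Psf2 over the virgin pair, were not rerun under the alternatives. Calls among the 31 genes numbered 13, 23 and 22 in the SETDB1, wde and Nup154 knockdowns over the NGVP16 pair, and were 11 to 17, 21 to 27 and 19 to 25 under the alternatives that leave no library out, apart from 9 in SETDB1 GKD with a replicate block. Of 10105 genes, 2438, 3588 and 3735 were called in the main fit. With the length trend removed, which gave the 17, 27 and 25, the counts over all genes were 3555, 4579 and 4601. Of these 17, 27 and 25 calls, 2, 2 and 1 were for higher levels, so PCNA2 was not always the only gene called higher. For all knockdowns over all young controls 2 were called higher in that setting, when 6367 of 10105 genes were called in either direction. Leaving out each library gave 0 to 19 calls with SETDB1, 6 to 26 with wde and 9 to 24 with Nup154 knocked down, and 24 to 28 for all knockdowns over all young controls. Among the alternatives that leave no library out, the virgin pair over the NGVP16 pair had 1 call, with the length trend removed, when 555 of 10105 genes were called. Calls also appeared there when either NGVP16 library was left out, which leaves that set with a single library. The median of the 31 was then -0.01 without NGVP16 control 1 and 0.01 without NGVP16 control 2. SETDB1 over wde GKD had 2 calls with DESeq2 and 1 with the length trend removed, when 572 and 282 of all genes were called. SETDB1 over Nup154 GKD had 2 calls with upper quartile scaling, no filter or DESeq2, when 336, 493 and 1246 of all genes were called. It had 3 with the length trend removed (1336 of all genes) and 0 with a replicate block (55 of all genes). wde over Nup154 GKD had 1 call with DESeq2 and 2 with the length trend removed, when 924 and 590 of all genes were called. The causes were not tested.

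It is not known whether replicate numbers pair the samples. The replicate differences of SETDB1 and wde GKD had a correlation of 0.396. For the other pairs among the knockdown and NGVP16 sets it lay between -0.179 and 0.0159. With a replicate block the calls were 9 in SETDB1, 23 in wde and 21 in Nup154 GKD over the NGVP16 pair, when 1651, 2904 and 3138 of 10049 genes were called. SETDB1 over Nup154 GKD had 0, when 55 of 10049 genes were called. Upper quartile scaling moved the median of all genes from 0.15 to -0.00 in wde GKD and from 0.12 to -0.06 in Nup154 GKD over the NGVP16 pair, and from -0.05 to -0.21 in the virgin pair over the NGVP16 pair. Psf1 and PCNA2 lay below 10 CPM in every library, and their SEs between 2 sets were 0.59 and above.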

Other observations

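Of ratios of levels within a library, which are free of scaling between libraries, 4 were computed, chosen after the values were seen. Per kilobase, E2f1 over E2f2 was 1.51 to 2.36 in the 6 knockdown libraries against 0.356 to 1.43 in the 4 young controls, without overlap. CycE over CycA was 0.0891 to 0.163 in the knockdowns against 0.0536 to 0.0827 in the controls, also without overlap, and the lowest knockdown value was in SETDB1 GKD 2. The ratio of dup to geminin, Cdt1 and its inhibitor, was 0.229 to 0.396 in the knockdowns against 0.278 to 0.608 in the controls, where NGVP16 control 1 gave the lowest control value and overlapped the knockdowns. RnrL over RnrS was 0.447 to 0.642 in the knockdowns against 0.422 to 0.772 in the controls, which overlap. E2f1 is the longer gene and NGVP16 control 1 is low for long genes, and the part of this in its low ratio was not tested.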
